A study of Mus musculus with 6 samples.

Results

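The postsynaptic density is the protein-dense sheet under the membrane of an excitatory synapse. The genes of its core scaffold, 10 of the 36008 in the deposited gene table, are described here by their messenger RNAs in hippocampus. The members were taken by symbol, a choice made with earlier results of these data known. They are the 4 membrane-associated guanylate kinase (MAGUK) genes Dlg1, Dlg2, Dlg3 and Dlg4, the 3 SAPAP genes Dlgap1, Dlgap2 and Dlgap3, and the 3 Shank genes Shank1, Shank2 and Shank3. All 10 matched an entry of the gene table, and they carry 116 annotated transcripts, of which 104 passed the filter on low counts. The study asked how loss of PRMT9, an arginine methyltransferase that methylates the splicing factor SF3B2, changes RNA in the mouse hippocampus. PolyA-selected, stranded RNA-seq was made from the hippocampus of 3 WT and 3 Prmt9 KO mice, all female, 2 weeks old and of the B6J strain. The KO is a whole-body deletion of Prmt9 exon 5, made in the germline with CMV-Cre, so the deletion is not limited to neurons, and the WT mice were same-sex littermates.

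MAGUK proteins are known to bind the tails of glutamate receptors and other membrane proteins with their PDZ domains. SAPAP proteins bind the guanylate kinase domain of the MAGUKs, and Shank proteins bind the SAPAPs, so that the 3 families form stacked layers that reach down to Homer and the actin cytoskeleton. All 3 families are known for alternative promoters and alternative exons that change which domains and which short linkers a protein carries.

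Total estimated counts ran from 194098391 to 286771677 a mouse, so counting error was small for every member at the gene level. The targeted gene stood at 11.8, 15.2 and 15 TPM (a level scaled to transcript length and to depth) in the WT mice and at 3.93, 4.61 and 4.67 TPM in the KO mice. Its edgeR log2 fold change was -1.71 ± 0.10 (SE, n = 3 per genotype, adjusted p = 0.0327), and the groups did not overlap. The 8 markers of hippocampal excitatory neurons were detected in every mouse, the lowest at 4.70 TPM, with Slc17a7 at 736 to 960 TPM. The mouse numbered 1 of each genotype stood apart from the other 4: the first principal component, 67.4% of the variance of log2 gene counts, placed WT mouse 1 at -109.9, KO mouse 1 at -30.54 and the other mice between 31.3 and 37.56. WT mouse 1 had no estimated read on 37.4% of transcripts, against 22.8% to 24.8% in the other 5 mice. The summed level of 5 oligodendrocyte genes was 1946 TPM in WT mouse 1 and 999.3 TPM in KO mouse 1, against 7821 to 11390 TPM in the other mice. The choroid plexus list of 5 genes, led by Ttr, ranged from 609 to 7268 TPM in WT and from 866.2 to 3339 TPM in KO. The part of these differences in the results below was not tested. Values for the mice numbered 2 and 3 only are given beside the gene-level changes and some of the isoform differences.

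Dlg4 encodes PSD-95, the major MAGUK of the excitatory postsynaptic density, and it lies on mouse chromosome 11 at chr11:70016942-70047522 of GRCm38, plus strand. It was the highest of the 10 genes in every mouse. Its gene level was 370 TPM, 539 TPM and 531 TPM in WT mice 1, 2 and 3, and 386 TPM, 487 TPM and 499 TPM in the KO mice. The mice numbered 1 were lowest in both genotypes and the groups overlapped. The edgeR log2 fold change of KO over WT was -0.08 ± 0.11 (SE, n = 3 per genotype, unadjusted p = 0.494, adjusted p = 1.0).

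Dlg1 encodes SAP97, a MAGUK known for the trafficking of glutamate receptors. Its gene level was 23.3, 54.1 and 52.4 TPM in WT and 30.02, 49.5 and 51.0 TPM in KO. Dlg2 encodes PSD-93 and spans 1972.6 kb, the longest of the 10 genes. Its level was 75.7, 147 and 145 TPM in WT and 111, 154 and 153 TPM in KO. In both genes the spread between the mouse numbered 1 and the other mice of a genotype was wider than the distance between genotypes, and the groups overlapped. Dlg2 was the one member with a log2 fold change above 0, at 0.13 ± 0.17 (SE, edgeR unadjusted p = 0.490). Without WT mouse 1 the change was -0.01. Dlg2 was higher in KO in all 3 pairs of mice with the same number. The labels do not pair the mice, and here and below such counts were not set against those over all genes, transcripts or events. Dlg3 encodes SAP102, the MAGUK known for its high expression in the young brain. It lies on chromosome X and stood at 74.6, 97.6 and 95.8 TPM in WT and 83.3, 95.7 and 88.4 TPM in KO, with overlapping groups.

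The SAPAP genes spanned a wide range. Dlgap1 encodes SAPAP1 (also GKAP), and its level was 88.4, 226 and 223 TPM in WT and 101, 211 and 211 TPM in KO. Dlgap2, the lowest of the 10 genes, stood at 15.4, 36.4 and 35.0 TPM in WT and at 19.3, 32.1 and 30.8 TPM in KO. Dlgap3 encodes SAPAP3, the family member known for its role at corticostriatal synapses, and it stood at 134, 159 and 147 TPM in WT and 124, 146 and 148 TPM in KO. It was the member with the ratio nearest to 1 between WT mouse 1 and the other WT mice, at 0.876, while between KO mouse 1 and the other KO mice that was Dlg3, at 0.904 against 0.847 for Dlgap3. The Dlgap3 log2 fold change was -0.17 ± 0.11 (SE, n = 3 per genotype, edgeR unadjusted p = 0.180), the lowest of the 10 with all mice, but it was -0.08 without WT mouse 1 and -0.06 with the mice numbered 2 and 3 only, where Dlgap2 and Shank1 were lower. The groups of all 3 SAPAP genes overlapped.

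The Shank genes encode the layer below. Shank1 was at 116, 238 and 223 TPM in WT and 132, 201 and 211 TPM in KO. Shank2 was at 36.2, 74.7 and 72.1 TPM in WT and 43.0, 70.0 and 70.7 TPM in KO. Shank3, the gene lost in Phelan-McDermid syndrome, was at 91.1, 126 and 120 TPM in WT and 93.6, 118 and 118 TPM in KO. In each Shank gene KO mice 2 and 3 lay below WT mice 2 and 3, while KO mouse 1 lay above WT mouse 1, and the groups overlapped.

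**Figure D1:**
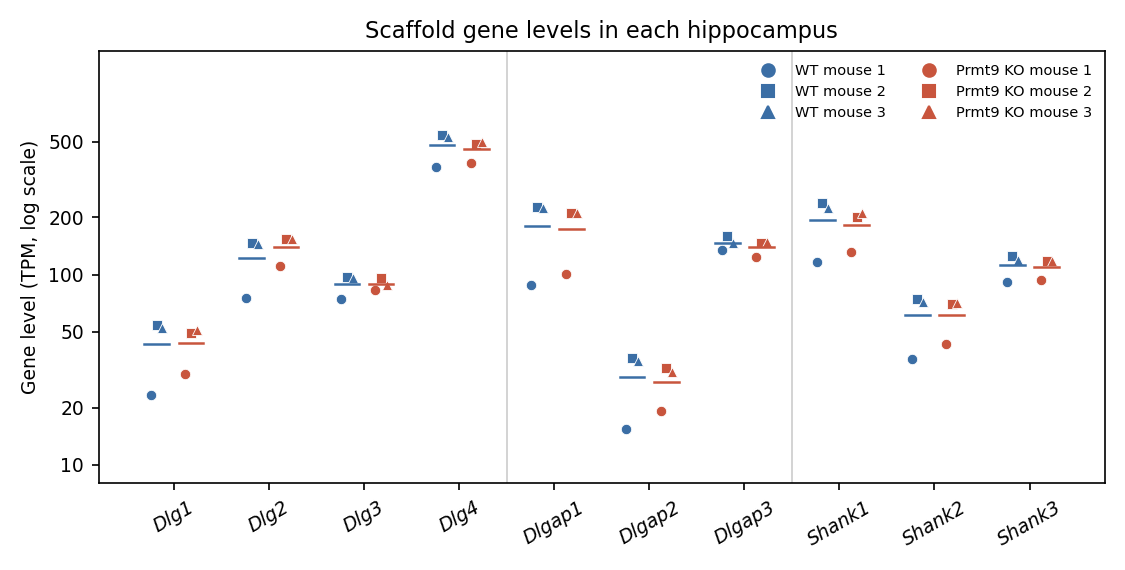
Gene level in TPM (log axis) of the 10 scaffold genes, with 1 point per mouse, WT in blue and Prmt9 KO in red, the mean of each genotype as a line and the shape giving the mouse number. Dlg4 stood highest, at 370 to 539 TPM, Dlgap2 lowest, at 15.4 to 36.4 TPM, and the mice numbered 1 (circles) were the lowest of their genotype in every gene.

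The order of the mean WT levels, which are per length and so can be compared between genes, was Dlg4, Shank1, Dlgap1, Dlgap3, Dlg2, Shank3, Dlg3, Shank2, Dlg1 and Dlgap2. Dlg4 was 2.49 times Shank1, and this was the one step in the order where the WT ranges of neighbors did not overlap. Shank3 stood above Dlg3, Dlg3 above Shank2, Shank2 above Dlg1 and Dlg1 above Dlgap2 in 6 of 6 mice, although the ranges of these neighbors overlapped over mice. Shank1, Dlgap1 and Dlgap3 changed places between mice. Summed by family, the MAGUK genes held 543.4, 837.2 and 824.7 TPM in WT and 609.7, 786.3 and 791.8 TPM in KO. The 10 genes together held 1455 ± 373.8 TPM in WT and 1423 ± 259.8 TPM in KO (SD, n = 3 each), a difference of -32.91 TPM (exact permutation test, two-sided, p = 0.8, where 0.1 is the smallest p that 3 against 3 can give). With the mice numbered 2 and 3 only the difference was -98.3 TPM, since KO mouse 1 lay 97.9 TPM above WT mouse 1 and the KO mice numbered 2 and 3 lay below the WT mice of their number. In bulk tissue, fewer cells of a type and less RNA per cell cannot be told apart.

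The mice numbered 1 were lower in genes with a long span. In Dlgap1, which spans 852.3 kb, WT mouse 1 held 0.394 of the mean of WT mice 2 and 3, and in Dlgap3, which spans 67.8 kb, it held 0.876. Over all genes with a mean of at least 10 TPM, the median ratio for WT mouse 1 was 0.824 in the 8514 genes that span under 100 kb and 0.638 in the 1462 genes of 100 kb or more. KO mouse 1 showed the same order with ratios nearer to 1, at 0.960 and 0.831. The WT ratios of the 5 members that span 100 kb or more ran from 0.394 to 0.519. Among the shorter genes Shank1 had a ratio in the same range, at 0.505 with a span of 50.3 kb.

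**Figure D2:**
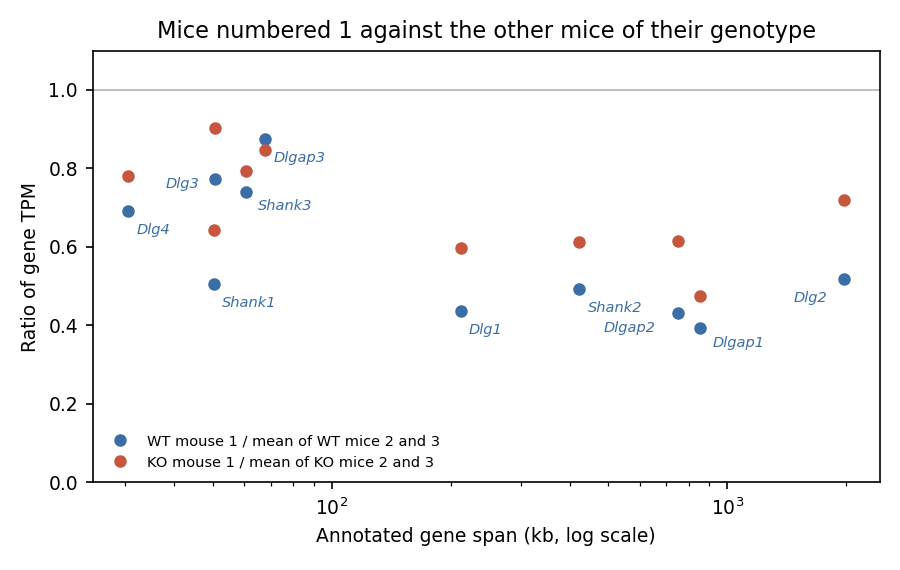
Ratio of gene TPM in the mouse numbered 1 to the mean of the other mice of its genotype (blue for WT, red for KO) against the annotated gene span in kb on a log axis. All 20 ratios lay below 1, and the WT ratio was the lower of the pair in each gene but Dlgap3.

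With edgeR, a gene was called where its adjusted p was below 0.01 and its fold change above 1.5. This held for none of the 10 members and none of the 20315 genes tested (0.0%). The deleted gene, Prmt9, was among those not called, at a log2 fold change of -1.71 (edgeR adjusted p = 0.0327). At an unadjusted p below 0.05, 0 of 10 members and 252 of all genes (1.24%) passed, and DESeq2 called 2 genes, neither of them a member. The TPM of the groups overlapped in all 10 members, while in 6.67% of all genes they did not (5.28% with all KO mice above, 1.38% with all below). The log2 fold change was below 0 in 9 of 10 members, with a median of -0.08, and in 53.1% of all genes, with a median of -0.01. The direction of small changes turned with the scale: on log2(TPM + 1) with limma the changes of Dlg1, Dlg3, Dlgap1 and Shank2 were 0.06, 0.01, 0.0 and 0.04.

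Without the mice numbered 1 the spread within a genotype shrank and more of the genome passed the unadjusted threshold. With the 4 mice numbered 2 and 3, Dlgap2 and Shank1 were lower in KO, each by -0.18 on the log2 scale, with unadjusted p of 0.00454 and 0.00500. Neither passed after adjustment over all genes (edgeR adjusted p = 0.154 for both). In that fit 8.6% of 20479 genes were lower in KO at the same unadjusted threshold, and 1 gene, Prmt9, was called (0.00488%). No other member passed an unadjusted p of 0.05 there, and the changes of all 10 ran from -0.18 to 0.07.

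**Figure D3:**
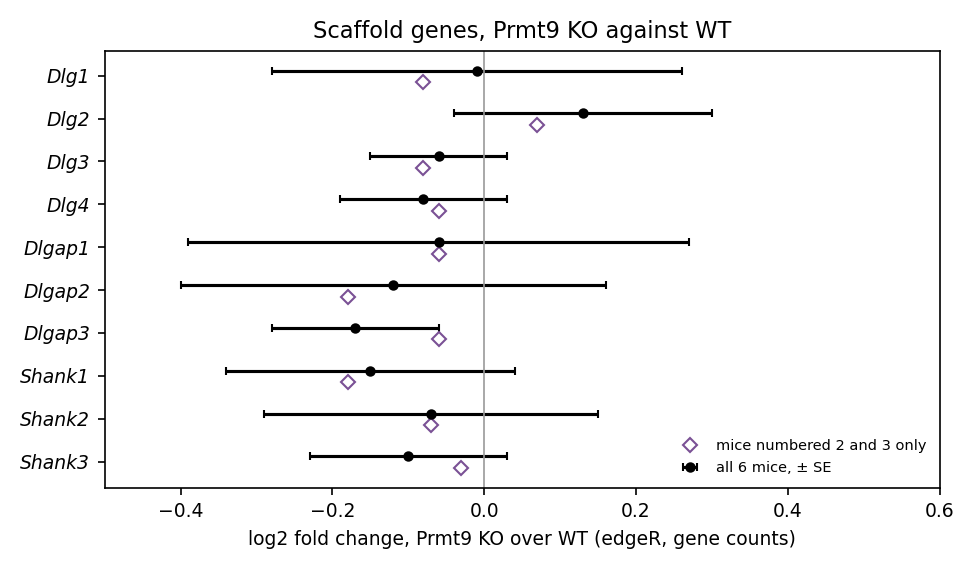
Log2 fold change of KO over WT for the 10 genes, from edgeR on gene counts, with all 6 mice (filled, bars are SE) and with the mice numbered 2 and 3 only (open). Filled points lie between -0.17 and 0.13, and the intervals of 1 SE reach 0 for each gene but Dlgap3, at -0.17 ± 0.11.

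The transcripts behind these levels differ in where they start and in short exons. The main Dlg4 transcript, Dlg4-203, begins coding in its first exon at chr11:70018920-70018949, while Dlg4-201 begins coding further in, in exon 3 of 19, at chr11:70030625-70030654. The first 30 coding bases of Dlg4-203, which Dlg4-201 lacks, encode the start of PSD-95, which is known to be palmitoylated and so holds the protein at the membrane. They are only part of the difference, since the coding length is 2172 bases in Dlg4-203 and 1992 in Dlg4-201. These 30 bases are shown with the first 30 coding bases of Dlg4-201 (GENCODE M21 on GRCm38, plus strand), with the start codon in capitals.
Dlg4-203: ATGgactgtctctgtatagtgacaaccaag
Dlg4-201: ATGgagtatgaggagatcacattggaaagg

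Dlg4-203 made up 53.6%, 60.0% and 58.6% of the gene's TPM in WT and 60.0%, 63.9% and 60.7% in KO. KO mouse 1 and WT mouse 2 were equal to 3 digits, and the other KO mice lay above every WT mouse (mean 57.42% ± 3.398 against 61.55% ± 2.032, SD, n = 3 each, exact permutation p = 0.1, the smallest possible). The difference was 4.129 percentage points with all mice and 2.96 with the mice numbered 2 and 3 only. Dlg4-201 made up 27.6%, 11.4% and 12.6% in WT and 21.3%, 13.5% and 13.1% in KO. The mice numbered 1 had the highest share of Dlg4-201 in both genotypes, and its groups overlapped. The first exon of Dlg4-203 and its relatives took 0.658, 0.745 and 0.727 of the TPM of coding transcripts complete at their 5' end in WT. In KO it took 0.730, 0.766 and 0.755 (limma unadjusted p = 0.240).

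Dlg4 also has a regulated exon near its 3' end. The 110-base exon at chr11:70043658-70043767, exon 18 of 20 of Dlg4-203, is known to be repressed by the polypyrimidine tract binding proteins Ptbp1 and Ptbp2, and the transcript that lacks it is a known target of nonsense-mediated decay (NMD), so that Dlg4 RNA rises as neurons mature. Its length leaves a remainder of 2 when divided by 3. The exon is shown first, and below it the end of the reading frame of Dlg4-205, the annotated NMD transcript that leaves it out, from 18 bases before the new junction to the stop codon in capitals.
Dlg4 110-base exon: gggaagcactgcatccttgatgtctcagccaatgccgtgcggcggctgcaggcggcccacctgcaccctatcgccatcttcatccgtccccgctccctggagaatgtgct
Dlg4-205 junction: cgagaggtagcagagcagagagatcaaTAA

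The stop codon of Dlg4-205 lies at chr11:70044285-70044287, in exon 20 of 21 and 80 bases before the last exon junction. The same exon length of 110 bases occurs, with 2 exons after it, in the main transcripts of Dlg1, Dlg2 and Dlg3. Aligned to the Dlg4 exon, 70 bases of the Dlg1 exon, 75 of the Dlg2 exon and 74 of the Dlg3 exon were identical. No annotated transcript of Dlg1, Dlg2 or Dlg3 joined the flanking exons without it, so its skipping could be estimated in Dlg4 alone.

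Dlg4-205 stood at 1.28, 2.57 and 2.25 TPM in WT and 2.53, 2.40 and 2.74 TPM in KO. As a share of the transcripts that carry or skip the exon, skipping was 0.404%, 0.595% and 0.528% in WT and 0.749%, 0.580% and 0.668% in KO. KO mouse 2 lay below WT mouse 2, so these shares overlapped, and the exon was included at 0.993 to 0.996 in every mouse. As a share of all coding and NMD-type TPM of the gene, Dlg4-205 took 0.374%, 0.502% and 0.445% in WT and 0.690%, 0.511% and 0.577% in KO. These values did not overlap, the closest being WT mouse 2 and KO mouse 2, and the difference of the means was 0.152 percentage points (exact permutation p = 0.1, the smallest possible). The percent of all genes whose NMD-type shares did not overlap was not counted, so this is not read as a result about Dlg4. Among all tested events, a different measure, 10.3% had groups that did not overlap. In the limma fit over all genes with an NMD-type transcript the log2 ratio changed by 0.41 ± 0.32 (SE, unadjusted p = 0.250, adjusted p = 0.992). The difference of the shares was 0.0706 percentage points with the mice numbered 2 and 3 only. Dlg4-205 also has first exons of its own, so its estimate does not rest on the skipped exon alone.

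Ptbp1 was at 30.5, 38.3 and 39.6 TPM in WT and 37.4, 40.1 and 47.5 TPM in KO, and Ptbp2 at 79.8, 73.8 and 75.6 TPM in WT and 94.6, 79.2 and 73.0 TPM in KO. The groups of both genes overlapped (edgeR log2 fold change 0.12 ± 0.11 and 0.00 ± 0.15, SE, unadjusted p = 0.330 and 0.983). Of the 7 genes in the list of exon and decay regulators, which also held Ptbp3, Upf1, Upf2, Upf3b and Smg1, none was called.

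Dlg1 and Shank3 were the other members with transcripts of the NMD type. In Dlg1 the 2 such transcripts share a stop codon at chr16:31838103-31838105, and Dlg1-209 has 9 junctions after it. They took 28.9%, 15.9% and 12.9% of coding and NMD-type TPM in WT and 23.3%, 14.4% and 15.1% in KO, so that Dlg1 carried a far larger NMD-type share than Dlg4. Its share was highest in the mouse numbered 1 of each genotype and the groups overlapped (limma log2 ratio -0.10 ± 0.44, SE, unadjusted p = 0.822). In Shank3 the 1 such transcript, Shank3-208, was listed at 0 in WT mouse 1 and stood at 0.722 and 0.655 TPM in WT mice 2 and 3, against 0.287, 0.791 and 0.522 TPM in KO. Over the 3457 genes tested, 0.0% passed an adjusted p of 0.01, 2.92% passed an unadjusted p of 0.05 and 58.2% had a higher ratio in KO, and the members' counts were 0 of 3, 0 of 3 and 2 of 3.

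**Figure D4:**
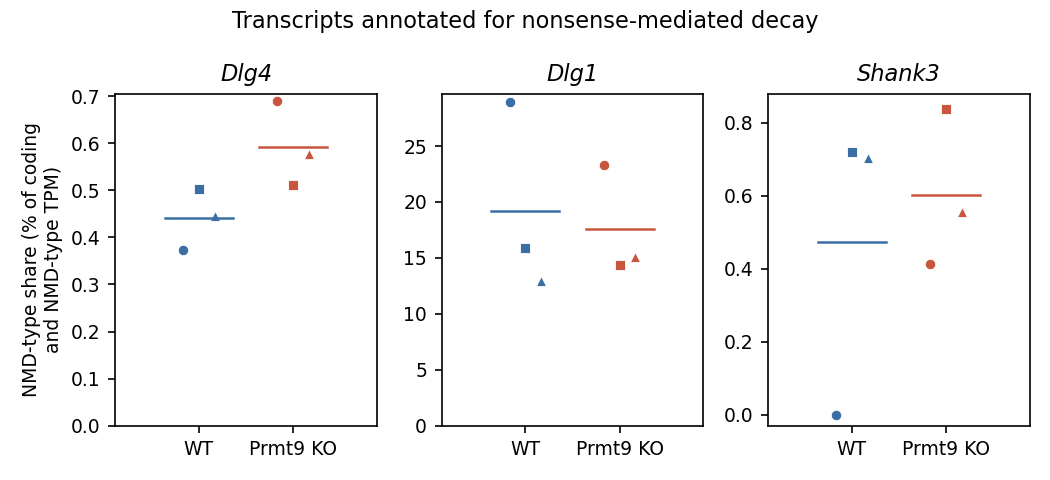
NMD-type transcripts as a percent of coding and NMD-type TPM in Dlg4, Dlg1 and Shank3, each panel with its own axis, 1 point per mouse (circle, square and triangle for mice 1, 2 and 3) and the mean of each genotype as a line. The Dlg4 values were 0.374% to 0.502% in WT and 0.511% to 0.690% in KO, while the Dlg1 and Shank3 groups overlapped. How often such shares did not overlap over all genes was not counted.

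Dlg1, Dlg2 and Dlg3 carry a pair of alternative exons just before a shared run of coding exons: a 100-base exon, or in its place one of 34 bases in Dlg1 and 46 bases in Dlg2 and Dlg3. All 6 exons leave a remainder of 1 when divided by 3, so that either choice keeps the frame and the use of both or neither does not. In Dlg1 this stretch lies between the SH3 and guanylate kinase domains. The exons are shown because they hold the one Dlg1 event that passed an unadjusted p of 0.05, and because the paralogs can be compared in them. They lie at chr16:31846834-31846933 and chr16:31847636-31847669 for Dlg1, chr7:92417224-92417323 and chr7:92418088-92418133 for Dlg2, and chrX:100808053-100808152 and chrX:100809862-100809907 for Dlg3, all on the plus strand of GRCm38.
Dlg1 100-base exon: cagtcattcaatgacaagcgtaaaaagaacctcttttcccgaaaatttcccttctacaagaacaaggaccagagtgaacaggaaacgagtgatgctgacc
Dlg2 100-base exon: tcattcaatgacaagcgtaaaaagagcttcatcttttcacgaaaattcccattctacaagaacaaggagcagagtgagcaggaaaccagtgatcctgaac
Dlg3 100-base exon: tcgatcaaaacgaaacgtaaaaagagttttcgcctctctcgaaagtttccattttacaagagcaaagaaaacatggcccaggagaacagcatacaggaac
Dlg1 34-base exon: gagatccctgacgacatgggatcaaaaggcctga
Dlg2 46-base exon: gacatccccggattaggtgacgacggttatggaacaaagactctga
Dlg3 46-base exon: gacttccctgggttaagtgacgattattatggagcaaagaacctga

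In a global alignment, the 100-base exons of Dlg1 and Dlg2 were identical in 88 of 103 columns, those of Dlg1 and Dlg3 in 68 of 106, and those of Dlg2 and Dlg3 in 70 of 102. The 46-base exons of Dlg2 and Dlg3 were identical in 36 of 46 bases.

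In Dlg1, transcripts with the 100-base exon took 0.356, 0.338 and 0.352 of the TPM of transcripts with either exon in WT and 0.408, 0.403 and 0.407 in KO. The mice of each genotype lay close together, and the groups did not overlap. The mean share was 0.3487 ± 0.00953 in WT and 0.4058 ± 0.0028 in KO (SD, n = 3 each), a difference of 0.0571 (exact permutation p = 0.1, the smallest possible; limma unadjusted p = 0.0491, adjusted p = 1.0 over 26523 events). With the mice numbered 2 and 3 only the difference was 0.0599, and leaving out any 1 mouse gave 0.0518 to 0.0609. Of all events 10.3% had groups that did not overlap and 2.95% passed the unadjusted threshold. The including side of this event is 1 transcript, Dlg1-202, and the other side is 6.

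In Dlg2 and Dlg3 the values for the same pair depended on which transcripts were counted. The event tested in Dlg2 was built from transcripts of 672, 964 and 2329 bases, the shorter 2 annotated as noncoding processed transcripts. In it the 100-base exon took 0.306, 0.357 and 0.420 in WT and 0.218, 0.296 and 0.346 in KO, with overlapping groups (limma unadjusted p = 0.149), and each KO mouse lay below the WT mouse of its number. Dlg2-204 has the 46-base exon and took 70.0% to 78.0% of the summed TPM of the gene's annotated transcripts. It entered on neither side because its neighboring exons differ. A second Dlg2 event on the same exons, which holds Dlg2-204 and was left out of the fit by the limits on shares, put the 100-base exon at 0.00985, 0.0154 and 0.0163 in WT and 0.00832, 0.0207 and 0.0214 in KO, also with overlapping groups. Over all Dlg2 transcripts that carry exactly 1 of these exons, the 100-base exon took 0.0449, 0.0397 and 0.0449 in WT and 0.0291, 0.0438 and 0.0459 in KO, so that only KO mouse 1 lay below the WT mouse of its number.

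The event tested in Dlg3 set 3 transcripts against Dlg3-202 alone, and in it the 100-base exon took 0.512, 0.244 and 0.244 in WT and 0.425, 0.289 and 0.351 in KO (limma unadjusted p = 0.725). With Dlg3-201 and Dlg3-204, which also carry the 46-base exon, the share was 0.356, 0.121 and 0.124 in WT and 0.281, 0.146 and 0.200 in KO. The mice numbered 1 were highest in both counts, and the groups overlapped. Most of the 100-base side was Dlg3-208, annotated as a noncoding processed transcript. It stood at 24.07, 8.229 and 8.063 TPM in WT and 19.46, 9.051 and 12.98 TPM in KO. The coding transcript on that side, Dlg3-203, was at 1.345, 1.687 and 1.815 TPM in WT and 1.431, 2.105 and 2.122 TPM in KO. These shares therefore say little about coding Dlg3 RNA. The difference over all these Dlg3 transcripts was 0.00905 with all mice and 0.0508 with the mice numbered 2 and 3 only. In Dlg1 a count that added Dlg1-207 to the 34-base side gave 0.330, 0.322 and 0.335 in WT. In KO it gave 0.393, 0.386 and 0.387, again with no overlap. Dlg1-207 joins a 97-base form of the 100-base exon to the 34-base exon, so it holds sequence of both. The differences in Dlg1, Dlg2 and Dlg3 were not tested against each other.

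The other event that passed an unadjusted p of 0.05 was an exon of Dlg4 at chr11:70026923-70027087. Its first 66 bases are the second exon of Dlg4-203, and the 99 bases in capitals are read only where the later donor site is used. It is shown for its length, which is a multiple of 3, and because its whole extent is annotated as coding.
Dlg4 165-base exon: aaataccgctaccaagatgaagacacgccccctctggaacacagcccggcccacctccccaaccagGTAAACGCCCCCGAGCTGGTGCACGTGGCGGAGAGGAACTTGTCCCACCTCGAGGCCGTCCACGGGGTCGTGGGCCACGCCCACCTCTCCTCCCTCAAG

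Set against Dlg4-219, which joins the first exon to the next without it, the 165-base form in Dlg4-210 took 0.432, 0.406 and 0.378 in WT and 0.208, 0.320 and 0.296 in KO. Every KO mouse lay below every WT mouse, with means of 0.4054 ± 0.0271 and 0.2747 ± 0.05905 (SD, n = 3 each, limma unadjusted p = 0.0152, adjusted p = 1.0). The difference was -0.131 with all mice and -0.084 with the mice numbered 2 and 3 only. Both transcripts are minor, with 4.23, 12.5 and 10.8 TPM of Dlg4-210 in WT and 2.79, 7.18 and 7.54 TPM in KO, and Dlg4-210 is annotated as incomplete at its 3' end. Against all transcripts with the shorter 66-base exon, the later donor site took 0.0194, 0.0348 and 0.0313 in WT and 0.0116, 0.0210 and 0.0225 in KO, and these groups overlapped.

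**Figure D5:**
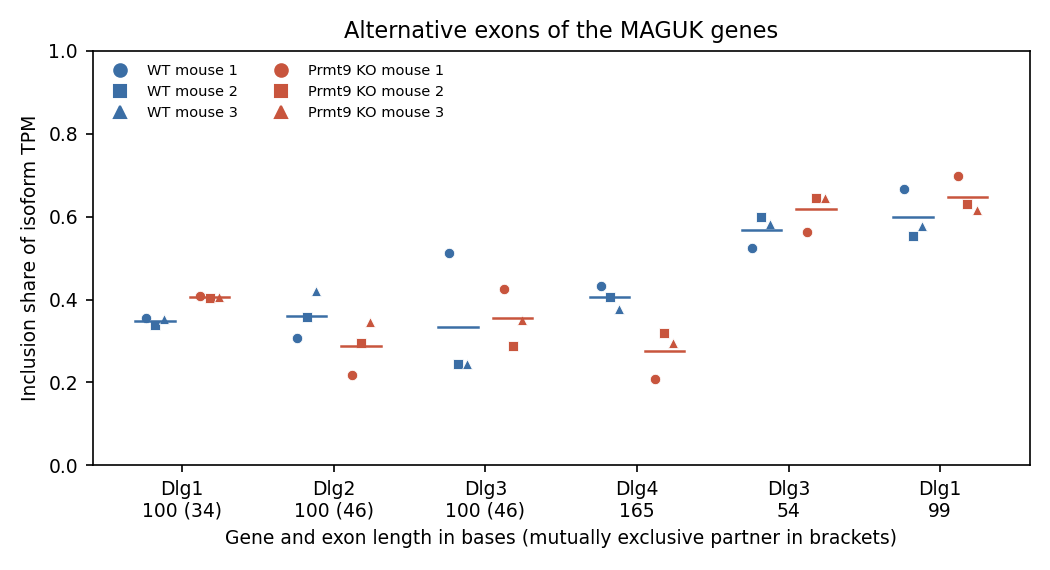
Inclusion share of 6 alternative exons of the MAGUK genes in the tested events, as a share of the TPM of the transcripts that include or leave out the exon between the same neighboring exons, with 1 point per mouse and the mean of each genotype as a line. The 100-base exon of Dlg1 (0.338 to 0.356 in WT, 0.403 to 0.408 in KO) and the 165-base exon of Dlg4 (0.378 to 0.432 in WT, 0.208 to 0.320 in KO) had groups that did not overlap.

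Across the members 54 events were tested: 21 skipped exons, 18 first exons, 7 alternative 3' splice sites, 3 alternative 5' splice sites, 3 mutually exclusive pairs and 2 last exons. None passed the call rule (adjusted p up to 0.01 and a difference of 0.05 or more), nor did any of the 26523 events in the fit (0.0%). The 2 described for Dlg1 and Dlg4 were the members' events with an unadjusted p below 0.05. The groups did not overlap in 5 of the 54, 2 in Dlg1, 2 in Dlgap2 and 1 in Dlg4, a share near that over all events.

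In Dlg3 the 54-base exon near its start, at chrX:100771307-100771360, had the smallest p of the gene's events, with shares of 0.525, 0.598 and 0.583 in WT and 0.563, 0.645 and 0.644 in KO. Each KO mouse was above the WT mouse of its number, while the groups overlapped (limma unadjusted p = 0.229). Dlg3-201, which lacks it, took 29.5%, 32.7% and 33.4% of the gene's TPM in WT and 29.3%, 27.0% and 25.9% in KO. These groups did not overlap, with WT mouse 1 and KO mouse 1 nearly equal. Dlg3-206, annotated as a retained intron form, was the one member transcript of 104 with an unadjusted edgeR p below 0.05 for its level, which 1216 of all 75661 transcripts passed (1.61%). It stood at 0.331, 1.197 and 1.23 TPM in WT and 1.86, 1.93 and 1.88 TPM in KO, all KO values above the WT values (log2 fold change 1.06, unadjusted p = 0.0341, adjusted p = 1.0).

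In Dlgap1 and Dlgap2 the events with the smallest p were exons near the 5' end. The 99-base exon of Dlgap2 at chr8:14179583-14179681 was included at 0.905, 0.921 and 0.931 in WT and 0.956, 0.947 and 0.934 in KO, with no overlap (limma unadjusted p = 0.114). The 42-base coding exon of the same gene at chr8:14823574-14823615 stood at 0.779, 0.801 and 0.800 in WT and 0.813, 0.825 and 0.819 in KO, again with no overlap (unadjusted p = 0.247). The 109-base untranslated exon of Dlgap1 at chr17:70206237-70206345 was at 0.226, 0.322 and 0.310 in WT and at 0.229, 0.236 and 0.231 in KO, where WT mouse 1 lay with the KO mice. In Dlgap3 the transcript with the main start, Dlgap3-201, held 83.2%, 75.6% and 74.6% of TPM in WT and 79.8%, 75.6% and 74.7% in KO, and the first exon of Dlgap3-203, the event with the smallest p (0.81), took 0.0311, 0.0521 and 0.0522 in WT and 0.0278, 0.0593 and 0.0645 in KO. Of the other main SAPAP transcripts, Dlgap1-211 held 37.3% to 54.1% of its gene in WT and 38.0% to 47.7% in KO, and Dlgap2-203 held 61.8% to 62.4% in WT and 59.2% to 64.5% in KO.

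Each Shank gene has a short coding exon of 21 or 24 bases, a multiple of 3, that some transcripts leave out. It lies at chr7:44344298-44344321 in Shank1, chr7:144398241-144398261 in Shank2 and chr15:89538015-89538038 in Shank3, and the sequences are shown to compare the paralogs.
Shank1 24-base exon: tctccccctggaagaagaaaattg
Shank2 21-base exon: cctcagtccggaagaagaagg
Shank3 24-base exon: cttccattcggagaagaaaagggg

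The Shank1 and Shank3 exons were identical in 16 of 25 aligned columns, and the Shank2 exon matched them in 15 and 16 of 24. In Shank3 inclusion was 0.903, 0.872 and 0.865 in WT and 0.859, 0.864 and 0.870 in KO, and in Shank1 it was 0.808, 0.705 and 0.717 in WT and 0.805, 0.713 and 0.720 in KO. In Shank2 it was 0.987, 0.930 and 0.936 in WT and 0.973, 0.918 and 0.918 in KO. All 3 groups overlapped, with limma unadjusted p of 0.402, 0.959 and 0.534. The main transcripts were the same in both genotypes. Shank1-203 took 44.2% to 55.7% of the gene's TPM in WT and 44.2% to 57.5% in KO. Its first exon was the Shank1 event with the smallest p (limma unadjusted p = 0.622). Of the TPM of coding transcripts complete at their 5' end, this exon took 0.770, 0.627 and 0.662 in WT and 0.825, 0.660 and 0.662 in KO. Shank2-205 took 52.8% to 54.7% in WT and 48.0% to 53.0% in KO, and Shank3-203 took 45.5% to 57.5% in WT and 51.0% to 59.5% in KO. Shank3-201 was at 31.0%, 16.7% and 16.4% in WT and 26.0%, 15.7% and 16.0% in KO, again with the mice numbered 1 apart.

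Of the members' transcripts, 43 took a mean share of at least 5% of their gene in WT or KO, and the shares of 4 did not overlap between genotypes. Over all genes tested with more than 1 transcript, this held for 9.44% of 49605 such transcripts, so the members' count is near the background. Of the 4, Dlg1-202, Dlg3-201 and Dlg4-203 are in the MAGUK genes, and Dlg1-202, the 100-base form, took 26.2%, 27.0% and 28.6% of Dlg1 in WT and 32.7%, 32.6% and 32.1% in KO. The other, Dlgap2-209, took 6.52%, 5.39% and 4.58% in WT and 2.72%, 3.57% and 4.56% in KO. No share of a single transcript can pass a permutation p of 0.1 with 3 mice against 3.

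Transcript usage, tested by edgeR's diffSpliceDGE with a Simes p per gene, was called in 0 of 10 members and in 23 of 13560 genes (0.17%). At an unadjusted p below 0.05 it passed in 0 of 10 members and 1.73% of genes. A block for the mouse number left 13 genes (0.0959%) and again 0 members. With the mice numbered 2 and 3 only it was called in 249 genes (1.82%), Dlg1 and Dlgap1 among them (adjusted p = 0.000629 and 0.00464). A term that set the mice numbered 1 apart called 52 genes (0.383%), Dlg1 among them (adjusted p = 0.00293) and Dlgap1 not (adjusted p = 1.0). The Dlg1 call rested on Dlg1-203, a transcript with the 34-base exon, at 2.24, 0.669 and 0.534 TPM in WT and 1.04, 0.0892 and 0.00308 TPM in KO. It was lower in KO in each pair of mice with the same number, and WT mouse 1 held its highest level while the gene as a whole was lowest in that mouse. The Dlgap1 call rested on Dlgap1-209, which was listed at 0 in both mice numbered 1, stood at 3.395 and 4.42 TPM in WT mice 2 and 3, and at 0.978 and 0.00188 TPM in KO mice 2 and 3. Both are minor forms, at most 9.61% and 1.98% of their gene's TPM in any mouse.

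In Dlg4, whose adjusted p for usage with the mice numbered 2 and 3 was 0.0145, the transcripts behind it were also minor. Dlg4-216 was at 13.5 and 13.5 TPM in WT mice 2 and 3 and 7.275 and 9.44 TPM in KO mice 2 and 3, and Dlg4-218 was at 20.25 and 19.6 TPM against 13.9 and 13.7 TPM. In the mice numbered 1 the same transcripts were at 1.81 and 2.415 TPM for Dlg4-216 and 1.83 and 3.29 TPM for Dlg4-218, higher in KO, so their direction turned with the mouse number. Dlg4-215, with a usage p near that of Dlg4-218 (0.000328 against 0.000289), stood at 12.4, 11.52 and 11.31 TPM in WT and 15.15, 13.16 and 15.75 TPM in KO, higher in KO in all 3 pairs of mice with the same number. In the same fit Shank2-203 had a diffSpliceDGE unadjusted p of 0.000135. It stood at 0.548, 2.21 and 2.04 TPM in WT and 0.984, 2.83 and 3.22 TPM in KO. With the term for the mice numbered 1, Shank1-202 had a diffSpliceDGE unadjusted p of 0.000284. Its level was 4.21, 35.3 and 27.8 TPM in WT and 2.05, 24.6 and 21.6 TPM in KO. Neither Shank gene was called for usage.

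The scaffold sits among other postsynaptic proteins, and a list of 38 further genes was tested beside it. Glutamate receptor subunits, Homer proteins, neuroligins and CaMKII are among them. The list also holds genes that are not specific to the postsynaptic density, such as Kcnj10. None of the 38 was called, 0 of 38 passed an unadjusted p of 0.05, and 29 had a log2 fold change below 0 and 9 above, with a median of -0.07 and a range of -0.30 to 0.10. The highest were Camk2a, the alpha subunit of CaMKII, at 776, 1700 and 1670 TPM in WT and 816, 1700 and 1640 TPM in KO, Dynll1, a dynein light chain that binds the SAPAPs, at 1560, 889 and 856 TPM in WT and 1150, 865 and 816 TPM in KO, and Camk2b at 489 to 767 TPM in WT and 540 to 730 TPM in KO. Dynll1 was highest in the mice numbered 1, against the pattern of the scaffold genes, and had the lowest log2 fold change of the list (-0.30 ± 0.35, SE, unadjusted p = 0.431). Kcnj10 and Cnksr3 followed, each at -0.21, with groups that overlapped.

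By Pearson's r of log2 CPM (counts scaled to library size) over the 6 mice, the genes most like Dlg4 among 9975 genes with a mean of at least 10 TPM were Bicra, Prrt1, Msl1, Insyn1 and Eef1a2, with r of 0.9972 to 0.9996. Over these mice 10.4% of all such genes had an r of at least 0.9, and the points share the low values of the mice numbered 1. Among the members, Shank1 ranked highest, at r = 0.9666 and rank 177, followed by Shank3 at 0.9398 and Shank2 at 0.9314. Dlg2 and Dlgap3 were the members least like Dlg4, at r = 0.6167 and 0.1593.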

How the data were processed

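Hippocampal polyA RNA of 3 WT and 3 Prmt9 KO mice was sequenced as paired stranded reads. The authors deposited, per the labels and the study's methods, estimated counts and TPM per transcript from kallisto (version 0.46.0 in the submitters' notes, where STAR 2.7.1a is also named) and a table of TPM per gene. Pseudoalignment splits shared reads between isoforms by a model, so levels of minor transcripts carry more error than gene levels, and no junction counts were used. Of 118783 transcripts, 116622 matched GENCODE M21 (GRCm38) by identifier without version, 116438 of them with the same length, and 2161 were left out. Transcript shares of a gene are of the summed TPM of its matched transcripts. In Dlg2 and Shank3 this sum lay below the gene TPM. In WT mouse 1, Dlg2-204 was at 56.13 TPM, given as 77.9%, while the Dlg2 gene level was 75.72 TPM. The members and the gene lists were chosen with earlier results of these data known.

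Estimated counts were rounded and summed per gene. Genes and transcripts were tested with edgeR 4.0.16 (TMM, filterByExpr, quasi-likelihood F test, called at adjusted p below 0.01 and fold change above 1.5), transcript usage with diffSpliceDGE, and events and NMD-type ratios with limma 3.58.1 on log2 ratios of TPM with a pseudocount of 0.1, all with Benjamini-Hochberg adjustment over the whole table. Events below 1 TPM in any mouse, or with mean shares outside 0.05 to 0.95 in both genotypes, were left out. First and last exons used coding transcripts complete at that end, and events that set the same transcripts against each other were kept once. NMD-type and retained intron are annotation classes. Single shares had an exact two-sided permutation test, for which 0.1 is the smallest p. Each mouse was 1 library, and labels tie no mouse to a litter. The scripts were tested on simulated data, in R 4.3.3 and Python 3.11.15.

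Named were all members and up to 3 transcripts per member of at least 5% of its TPM, plus those a usage call rests on. Each tested member event with a limma unadjusted p below 0.05 was named, or else the one with the smallest p. Members with NMD-type transcripts and 5 genes like Dlg4 were also named. So were the 3 highest and 3 most changed of the list of 38 further genes. Dlg3-206, the second Dlgap2 exon, the paralog exons and the Dlg4, Shank1 and Shank2 transcripts named for a usage p were added after their values were seen. Mice with the same number deviated together from their genotype means (r = 0.553, 0.415 and 0.383 for numbers 1, 2 and 3), although WT mouse 2 was as close to KO mouse 3 (r = 0.417), so the numbers separate mouse 1 from the others and do not tell 2 from 3. Alternatives were DESeq2 1.42.0, other normalization, filters and pseudocounts, the replicate block, a term for the mice numbered 1, and each mouse left out.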

Additional observations from a re-analysis of the deposited data

How the results depend on the processing

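Of 518 values recomputed under an alternative, 468 kept their direction and their side of the threshold, or as counts stayed within 1.5 times. No member was called at the gene, transcript, event or NMD-type level under any alternative that was run. DESeq2 called 2 genes and 110 transcripts in all, none of them a member's, and the fits with the mice numbered 2 and 3 only and with a term for the mice numbered 1 called 1 gene each. Genes called for usage were 1 with at least 10 counts in every mouse, 4 with limma's diffSplice, 249 with the mice numbered 2 and 3 only, 52 with the term, and 9 to 143 with each mouse left out (143 without WT mouse 1, 9 without KO mouse 3). Members called for usage were 2 and 1 in the 2 fits that set the mice numbered 1 aside, with Dlg1 at adjusted p = 0.000629 and 0.00293 and Dlgap1 at 0.00464 in the first.

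With the replicate number as a block, usage was called in 13 genes, the Dlg1 usage adjusted p was 0.0495 and the Dlg1 log2 change was 0.01. It changed no member's call.

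Gene-level changes that turned direction with the scale or with the term for the mice numbered 1 were small. On limma's log2(TPM + 1) scale they were 0.06 for Dlg1, 0.01 for Dlg3, 0.0 for Dlgap1 and 0.04 for Shank2, and with the term for the mice numbered 1 Dlg1 was at 0.01.
When each mouse was left out in turn, the log2 change ran from -0.23 to 0.15 for Dlg1, -0.01 to 0.22 for Dlg2, -0.29 to 0.18 for Dlgap1, -0.35 to 0.06 for Dlgap2, -0.23 to 0.1 for Shank2 and -0.15 to 0.01 for Shank3, where each end but the low one of Shank3 came without a mouse numbered 1. The NMD-type log2 change ran from -0.4 to 0.32 for Dlg1 and -0.22 to 1.07 for Shank3, and the NMD-type share difference from -4.77 to 3.25 percentage points for Dlg1 and from -0.11 to 0.25 for Shank3. The share difference of an event ran from -0.0016 to 0.0168 for the Dlgap3 first exon, -0.0258 to 0.071 for the Shank1 first exon and -0.0329 to 0.00324 for the Shank2 21-base exon.
With the mice numbered 2 and 3 only, the Dlg1 NMD-type log2 change was 0.05 and its share difference 0.395 percentage points, and those of Shank3 were -0.05 and -0.0154. The cause of these turns was not tested. Counting all transcripts with 1 exon of the pair, an alternative chosen after seeing the data, gave differences of 0.0599 for Dlg1 and -0.00354 for Dlg2, against 0.0571 and -0.0744. Transcripts at under 1 TPM in most mice, Dlg1-203 and Shank3-208 among them, are where the depth and the read assignment limit what can be said.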
